A study of Mus musculus with 15 samples.

Results

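The genes described here are 10 integrin chains, chosen by gene symbol from the 24421 symbols of 2 comparisons of tamoxifen with ethanol. They are the beta chains Itgb1, Itgb3, Itgb5, Itgb6 and Itgb8 and the alpha chains Itga1, Itga2, Itga3, Itga5 and Itgav, and all 10 have a row in both comparisons. The RNA came from a cell line established from bile ducts of adult C57BL/6 mice. Every library, control or treated, carries the genotype ITR-CreERT2;Klf5flox/flox, that is, a Cre recombinase that tamoxifen switches on and floxed alleles of Klf5, a zinc finger transcription factor of epithelia. Cells received 4-OH tamoxifen or its solvent ethanol (EtOH), and 3 ethanol and 4 tamoxifen libraries were compared at 12 h and 4 and 4 at 24 h. The design has no cells with active Cre and intact Klf5, so Klf5 loss, Cre activity and tamoxifen itself cannot be told apart. The samples come from a single named source, and neither separate cultures nor the meaning of ITR is given in the labels, so p-values cover no more than the spread among these libraries, and that spread may be technical. The series title places the cells in vitro, as 3D structures, but the design text says in vivo, and which holds was not settled.

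Integrins are receptors made of 1 alpha and 1 beta chain that hold epithelial cells to their matrix and pass signals in both directions across the membrane. The beta chain Itgb1 pairs with many alpha chains and serves collagen, laminin and fibronectin binding, whereas Itgb3, Itgb5, Itgb6 and Itgb8 pair in epithelia mainly with Itgav and bind ligands with an RGD tripeptide. The receptor of Itgav with Itgb6 is restricted to epithelia, is low in resting bile ducts and is known to rise in injured biliary epithelium. It frees TGF-beta from its latent complex, as does the receptor of Itgav with Itgb8.

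The starts of the called chains are shown first, because Klf5 and its relatives bind CACCC boxes and GC boxes in DNA. Of the 10 chains, Itgb6 was lower at both times and Itga3 was higher at 24 h, and a promoter window of 250 bases before to 50 after the start is printed for each, from RefSeq on GRCm38.p6. The window of Itgb6 is chr2:60722554-60722853 and that of Itga3 is chr11:95076665-95076964, both on the reverse strand, and capitals mark every CACCC and GGGCGG on either strand.
Itgb6: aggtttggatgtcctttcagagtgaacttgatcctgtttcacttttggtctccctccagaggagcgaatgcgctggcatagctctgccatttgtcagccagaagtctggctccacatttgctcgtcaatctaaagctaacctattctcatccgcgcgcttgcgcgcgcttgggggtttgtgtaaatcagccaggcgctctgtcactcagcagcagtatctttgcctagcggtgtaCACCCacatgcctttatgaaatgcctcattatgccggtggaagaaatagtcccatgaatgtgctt
Itga3: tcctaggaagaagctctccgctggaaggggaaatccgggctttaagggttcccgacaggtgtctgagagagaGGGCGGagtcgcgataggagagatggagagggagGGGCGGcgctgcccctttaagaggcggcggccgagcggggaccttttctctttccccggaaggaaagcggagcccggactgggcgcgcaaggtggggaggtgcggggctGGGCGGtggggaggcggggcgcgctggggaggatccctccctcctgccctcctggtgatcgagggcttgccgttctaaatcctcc
The Itgb6 window held 1 CACCC and no GGGCGG, and the Itga3 window held 3 GGGCGG and no CACCC. A second annotated start of Itgb6, at chr2:60673644-60673943, held neither, and a second one of Itga3, at chr11:95069149-95069448, held 1 GGGCGG and no CACCC. Of 32851 promoter windows of this length in the table, 57.5% held a CACCC and 35.7% a GGGCGG. For 9 of the 10 chains the table gave 11 windows, of which 7 held a CACCC and 7 a GGGCGG, and Itgb3 was not matched. These letters describe the windows, and the series holds no measurement of Klf5 binding to them.

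The values are those of the authors' deposited tables, which give for each gene the mean normalised count over all libraries of a time, the log2 fold of tamoxifen over ethanol and its standard error (SE), and no value per library. The mean normalised counts sum to 13891352 per library at 12 h and 11844187 at 24 h. The targeted gene, Klf5, stood at -1.29 (SE 0.23) at 12 h and -1.72 (SE 0.08) at 24 h in the authors' deposited tables. The sign of the folds was read from genes with a single read, which fall into 3 sets with negative and 4 with positive folds at 12 h, as the library numbers require. At 24 h the groups are of equal size, so this check gives no answer there and the direction was taken to be that of 12 h. A gene is called where its adjusted p, from the authors' Wald test and a Benjamini-Hochberg adjustment, is under 0.05. The ethanol and tamoxifen levels below were computed from the mean, the fold and the number of libraries, and are implied group means without an error of their own. The between-library coefficient of variation (CV) below is what the SE implies beyond counting error. In bulk RNA, fewer cells that express a gene and less RNA per cell cannot be told apart.

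At 12 h Itgb6 was lower with tamoxifen, and the other chains did not pass the threshold. The authors' deposited table gives 9 of the chains an adjusted p, and by the authors' Wald test 1 was lower and 0 were higher. Of all 13044 tested genes 0.943% were called, 0.728% lower and 0.215% higher. At an unadjusted p under 0.05 there was still 1 lower and 0 higher among the 10 chains, against 2.92% and 1.97% of all genes with a p. At 24 h Itgb6 was lower again and Itga3 was higher. Of the 9 chains with an adjusted p there, 1 was lower and 1 higher in the authors' deposited table, where 6.52% of 11648 tested genes were called lower and 5.9% higher. The chain without an adjusted p was Itgb8 at both times. With 2 called of 9 at 24 h, beside 12.4% of all genes in either direction, the count itself does not set the chains apart.

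**Figure D1:**
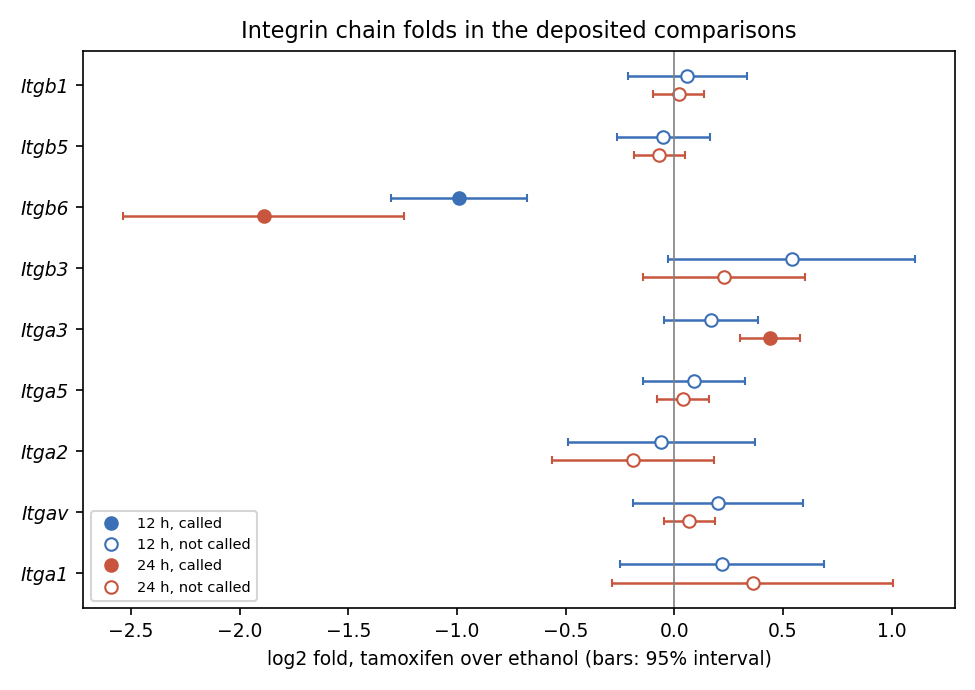
The log2 fold of tamoxifen over ethanol is plotted for 9 integrin chains at 12 h (blue) and 24 h (red), with bars of 1.96 SE on each side and filled points for called genes. Itgb6 lies at -0.99 and -1.89, Itga3 at 0.17 and 0.44, and every other interval includes 0. Itgb8, with almost no reads, is not drawn.

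Among the beta chains, Itgb6 had an implied level of 439 normalised counts in ethanol and 222 in tamoxifen at 12 h. Its log2 fold in the authors' deposited table was -0.99 (SE 0.16, 95% interval -1.31 to -0.67), and the authors' Wald test gave it an adjusted p of 8.95e-07. Tamoxifen cells thus held 50.4% of the ethanol level, with an interval of 40.4% to 62.9%. At 24 h the implied levels were 99.0 normalised counts in ethanol and 26.7 in tamoxifen. The later fold in the authors' deposited table was -1.89 (SE 0.33, 95% interval -2.55 to -1.24), and the adjusted p by that Wald test was 7.76e-07. The remaining share was 26.9% of ethanol, with an interval of 17.1% to 42.4%. The fall is therefore several times its SE at both times, and the 24 h value is the less precise of the pair. The gene lies on the reverse strand of chromosome 2 of GRCm38, from 60598292 to 60722643, with 20 merged exons, and no other annotated gene overlaps it.

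Itgb1, the common partner of the collagen, laminin and fibronectin binding alpha chains, was the most abundant beta chain and was not called at either time. Its mean was 7747 normalised counts at 12 h and 8683 at 24 h in the authors' deposited tables. The log2 fold was 0.06 (SE 0.14) at 12 h and 0.02 (SE 0.06) at 24 h in the authors' deposited tables, and the 24 h interval ran from -0.10 to 0.14. A change of Itgb1 at 24 h would have had to reach 0.17 on the log2 scale to be called with its SE, so smaller ones could not be seen. Itgb5, which with Itgav forms a vitronectin receptor, had means of 1771 and 1364 normalised counts in the authors' deposited tables. Its folds there were -0.05 (SE 0.11) at 12 h and -0.07 (SE 0.06) at 24 h, with a 24 h interval of -0.20 to 0.05.

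Itgb3, the beta chain of another vitronectin receptor, was scarce and its folds were positive but not called. Its means in the authors' deposited tables were 141 normalised counts at 12 h and 62.9 at 24 h. The fold of Itgb3 was 0.54 (SE 0.29, adjusted p = 0.912 in the authors' Wald test) at 12 h, with an interval of -0.02 to 1.10. At 24 h it was 0.23 (SE 0.19, adjusted p = 0.513 in the same test) in the authors' deposited table. At 12 h a 2.01-fold rise would have been needed for a call of Itgb3. Itgb8, the other TGF-beta activating partner of Itgav, was barely read: its means of 0.141 and 0.499 normalised counts match 1 read over 7 libraries at 12 h and 4 reads over 8 libraries at 24 h. No comparison can be made for Itgb8 at this depth.

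Among the alpha chains Itga3, which with Itgb1 binds laminins of the basement membrane, was the called member. At 24 h its implied level was 7334 normalised counts in ethanol and 9915 in tamoxifen. The log2 fold of Itga3 in the authors' deposited table was 0.44 (SE 0.07, 95% interval 0.29 to 0.58), and the authors' Wald test gave it an adjusted p of 1.46e-07. Tamoxifen cells held 135% of the ethanol level, with an interval of 122% to 149%. At 12 h the implied levels were 11793 and 13295 normalised counts, and the fold of 0.17 (SE 0.11) in the authors' deposited table had an interval of -0.05 to 0.39. The rise at 24 h is small in fold but large beside its error, with a Wald score of 5.96 in the authors' deposited table. Itga3 lies on the reverse strand of chromosome 11, from 95044474 to 95076801.

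The fibronectin receptor chain Itga5 was not called, and its 24 h interval was narrow. Its fold was 0.09 (SE 0.12) at 12 h and 0.04 (SE 0.06) at 24 h in the authors' deposited tables, with limits of -0.08 and 0.17 at 24 h. Itgav, the alpha partner of Itgb6, was not called either. Its folds in the authors' deposited tables were 0.20 (SE 0.20) at 12 h and 0.07 (SE 0.06) at 24 h, and the 24 h interval ran from -0.06 to 0.20, that is, up to 115% of the ethanol level. So the beta chain of the Itgav and Itgb6 receptor was lower while its alpha chain was not called, and the difference between these folds was not tested. For Itgav, 5.9% of its exon bases are shared with the annotated gene Gm13684 on the opposite strand, and the library kit does not mark strand.

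The collagen receptor chains Itga1 and Itga2 lie next to each other on chromosome 13, from 114953096 to 115101964 and from 114833081 to 114932100. Itga2 had means of 2670 and 4524 normalised counts in the authors' deposited tables, and folds of -0.06 (SE 0.22) at 12 h and -0.19 (SE 0.19) at 24 h. Its 24 h interval ran from -0.56 to 0.18, wide for so abundant a transcript. Itga1 had means of 289 and 203 normalised counts in the authors' deposited tables, and folds of 0.22 (SE 0.24) and 0.36 (SE 0.33). At 24 h the SE of Itga1 was nearly as large as its fold, and the interval of the tamoxifen level began at 82.5% of ethanol. Of the exon bases of Itga1, 3.68% are shared with the annotated gene Gm49395 on the same strand.

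The precision of these folds differed from gene to gene, most of all at 24 h. There the SE of Itga2 was 3.87 times the running median for genes near its own mean, and 0.351% of the 9983 genes whose mean reached 50 normalised counts had a ratio as high. The ratio was 2.94 for Itga1, reached by 0.751% of these genes, and 1.76 for Itgb6, reached by 2.4%. The implied between-library CV at 24 h was 18.5% for Itga2, 31.3% for Itga1 and 28.9% for Itgb6, against 5.41% for Itga5 and 6.04% for Itgb1. At 12 h the SE of Itgb6 was 0.958 times the running median and its implied CV was 13.7%. The libraries thus differed more in these 3 chains at 24 h than in most genes of their level, and without values per library it could not be seen which ones did. Itga3, called at 24 h, had a ratio of 1.51 and an implied CV of 7.07%. The remaining measured chains also lay above the running median at 24 h, by less. Their ratios were 1.3 for Itgb1, 1.28 for Itgav, 1.11 for Itgb5, 1.08 for Itga5 and 1.01 for Itgb3. For Itgb1 the ratio was reached by 9.92% of the genes.

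**Figure D2:**
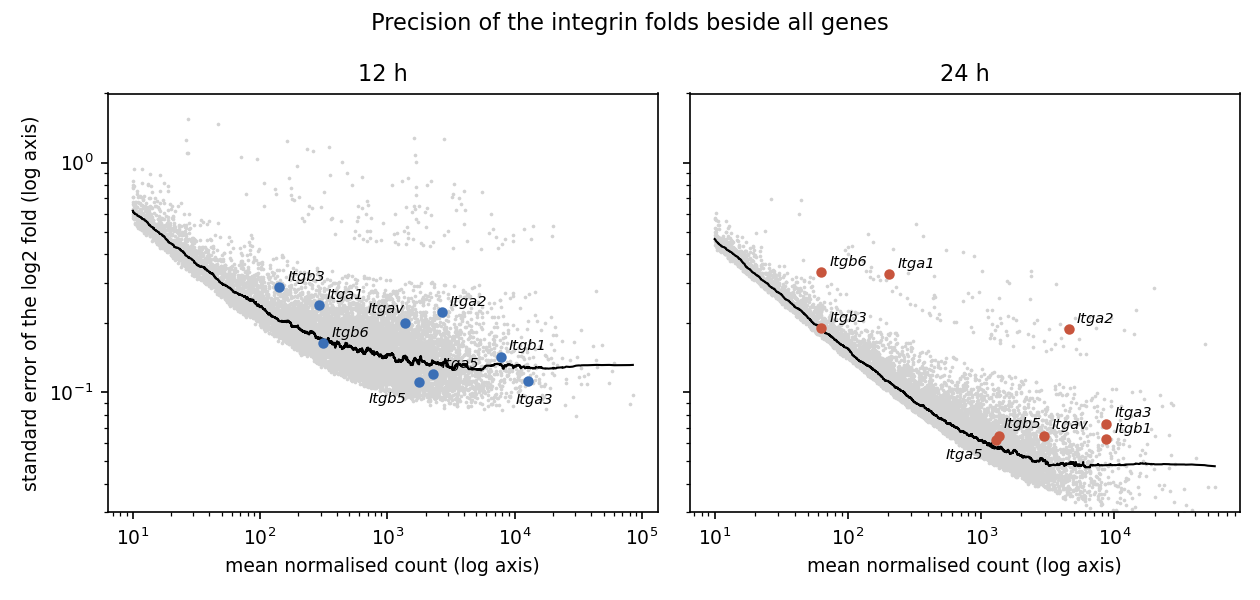
The SE of the log2 fold is plotted against the mean normalised count for all genes with an adjusted p and a mean of 10 or more (grey), with the running median (black line) and 9 integrin chains (coloured points), at 12 h and 24 h. At 24 h Itgb6, Itga1 and Itga2 lie furthest above the black line among the chains, at 1.76, 2.94 and 3.87 times the running median.

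The difference between the folds at 24 h and 12 h was tested for every gene with a p at both times, since the comparisons share no library. The fold of Itgb6 was lower at 24 h by a difference of -0.91 (SE 0.37, 95% interval -1.63 to -0.18), with an unadjusted p of 0.015 in this Wald test of the difference and a Benjamini-Hochberg adjusted p of 1. For Itga3 the difference was 0.26 (SE 0.13), with an unadjusted p of 0.0497 and an adjusted p of 1 by the same Wald test. No chain of the 10 passed, and 2 had an unadjusted p under 0.05. Over all 14981 genes the test called 2, or 0.0134%, and 1.64% had an unadjusted p under 0.05. That share is smaller than the threshold itself would give without any difference, so the test was conservative here. A deeper fall of Itgb6 at the later time was not shown by this test, which may miss true differences. For the other 8 chains the unadjusted p of the difference ranged from 0.367 to 0.875.

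Per kb of merged exons, Itga3 and Itgb1 were the most abundant chains and Itgb6 was among the scarce ones. At 12 h in ethanol the implied level per kb was 2065 normalised counts for Itga3 and 1851 for Itgb1, which lie within their between-library spread of each other. Next came Itgb5 at 508, Itga5 at 449 and Itga2 at 383 normalised counts per kb, neighbours that again do not differ beyond their spread. Itgav followed at 118, Itgb6 at 61.8, Itgb3 at 19.0 and Itga1 at 14.2 normalised counts per kb, each step larger than the spread with this length. The spread is the combined between-library CV of both genes and not the error of a group mean. At 24 h in ethanol the order was Itgb1 at 2114, Itga3 at 1284, Itga2 at 676 and Itgb5 at 394 normalised counts per kb. Itgav at 267 and Itga5 at 257 did not differ beyond their spread, and neither did Itgb3 at 9.81 and Itga1 at 9.54 normalised counts per kb, with Itgb6 just above these at 13.9. Itgb8 stood last at both times. With the longest transcript as the length, Itga1 stood above Itgb3 at both times, at 12 h by less than the spread. With that length Itga3 stood above Itgb1 at 12 h by more than the spread, so such steps depend on the length used. In tamoxifen the level of Itgb6 was 31.2 normalised counts per kb at 12 h and 3.75 at 24 h, the latter below Itgb3 at 11.5 and Itga1 at 12.3.

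**Figure D3:**
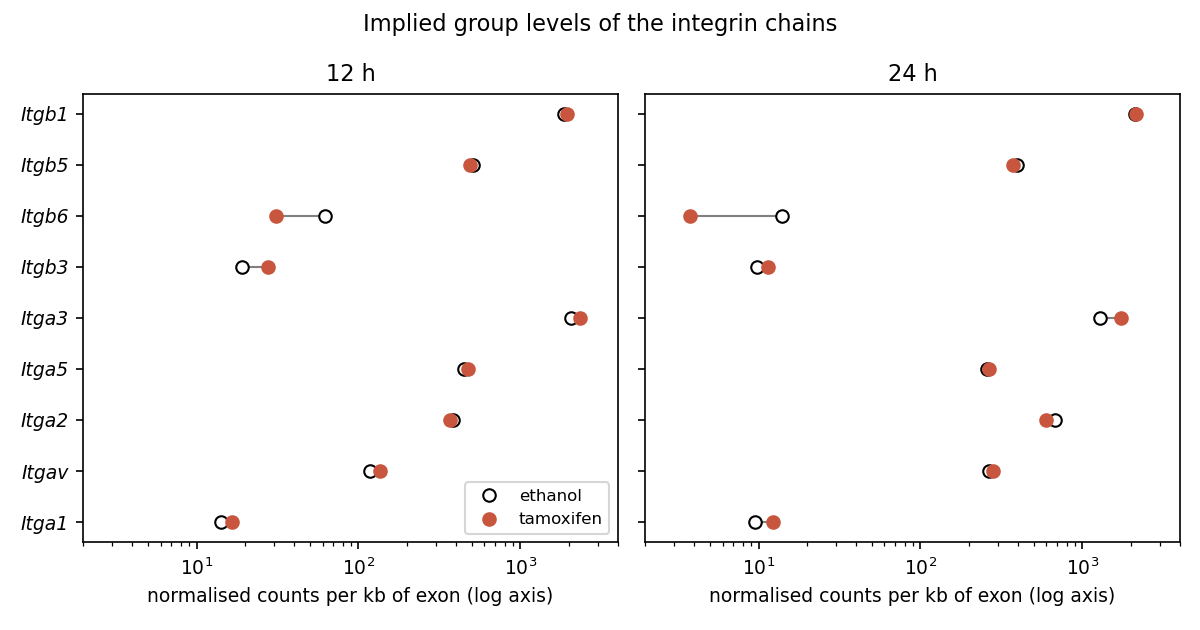
Implied levels in normalised counts per kb of merged exon (log axis) are plotted for 9 integrin chains in ethanol (open) and tamoxifen (filled) at 12 h and 24 h, as group means without error bars. The line of Itgb6 spans 61.8 to 31.2 at 12 h and 13.9 to 3.75 at 24 h, while for Itgb1 and Itga5 both points nearly coincide.

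Set against its partner, Itgb6 amounted to 52.4% of the Itgav level per kb in ethanol and 22.9% in tamoxifen at 12 h. At 24 h the figures were 5.22% in ethanol and 1.34% in tamoxifen. Among the 5 beta chains that can pair with Itgav, Itgb6 made up 2.53% of the summed level per kb in ethanol and 1.25% in tamoxifen at 12 h, and 0.55% and 0.148% at 24 h. Itgb1 held 75.9% and Itgb5 20.8% of that sum in ethanol at 12 h, and 83.5% and 15.6% at 24 h. Itgb3 was 30.8% of the Itgb6 level per kb in ethanol and 88.7% in tamoxifen at 12 h. At 24 h it was 70.5% in ethanol and 307% in tamoxifen, so the implied level of Itgb3 was above that of Itgb6 in tamoxifen. Among the 5 alpha chains, all partners of Itgb1, Itga3 held 51.5% of the summed level per kb in ethanol and 60.1% in tamoxifen at 24 h, and Itga2 27.1% and 20.5%. These are shares of transcripts, and receptors at the membrane were not measured.

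No neighbour of Itgb6 on chromosome 2 was called with it. Within 500 kb on either side 6 genes had an adjusted p at 12 h and 5 at 24 h. Of these 0 were called at either time by the authors' Wald test, beside 0.943% and 12.4% of all tested genes. With so few genes, the count of 0 does not set this stretch apart. Beside 4.9% and 18% of all genes with a p, 0 neighbours at 12 h and 1 at 24 h, the chromatin gene Baz2b, had an unadjusted p under 0.05. Their folds in the authors' deposited tables ran from -0.24 to 0.11 at 12 h and, among those with an adjusted p, from -0.36 (Pla2r1) to 0.17 (Baz2b) at 24 h. These neighbours were named after their values were seen. By distance of the log2 folds at both times, the genes most like Itgb6 among 9859 others whose means reached 50 normalised counts were Msln, Ms4a4b, Anxa8, Klf5 and Rdh10, at distances of 0.21, 0.28, 0.31, 0.35 and 0.48. Msln, the surface glycoprotein mesothelin, stood at -1.05 and -1.69 in the authors' deposited tables at 12 h and 24 h, and the annexin Anxa8 at -1.29 and -1.94. Rdh10, a retinol dehydrogenase, stood at -0.99 and -1.41, and Ms4a4b, of a family of similar membrane proteins whose reads may be shared, at -0.91 and -1.63 in the authors' deposited tables. The likeness rests on 2 folds per gene, and those of Itgb6 have SEs of 0.16 at 12 h and 0.33 at 24 h. These are of the size of the distances, so the order of the 5 genes is not resolved.

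Genes that work with integrins were then counted by lists. Some ligands and related surface proteins were called at both times. Of 13 measured members of the list of RGD and related ligands, 3 were lower, 0 higher and 10 not called at 12 h, where 0.728% of all tested genes were lower and 0.215% higher. The list had a median log2 fold of 0.03 beside -0.01 over all tested genes. The 3 were Plaur, the urokinase receptor, at -1.10 (SE 0.24), Ctgf, a matricellular protein, at -1.01 (SE 0.15), and Npnt, the basement membrane protein nephronectin, at -0.71 (SE 0.11) in the authors' deposited table. At 24 h 5 were lower, 3 higher and 5 not called of 13, beside 6.52% lower and 5.9% higher of all tested genes, and the median was 0.06. Plaur at -1.24 (SE 0.08), Ctgf at -1.05 (SE 0.10) and Npnt at -0.73 (SE 0.08) were lower again in the authors' deposited table, and fibronectin (Fn1), the ligand of the Itga5 and Itgb1 receptor and also of the Itgav receptors, was higher at 0.53 (SE 0.05). Fibronectin had the highest mean of the list at 24 h, 25867 normalised counts, in the authors' deposited table.

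Some laminin chains were lower and a collagen IV chain was higher. Of 12 measured collagen and laminin ligands at 12 h, 2 were lower and 0 higher, beside 0.728% and 0.215% of all tested genes, and the list median was -0.16. Among the lower ones was Lamb3, a chain of a laminin that binds the receptor of Itga3 with Itgb1, at -0.75 (SE 0.17) in the authors' deposited table. At 24 h 4 of 9 were lower and 1 higher, beside 6.52% and 5.9% of all tested genes, with a median of -0.06. Lamb3 stood at -1.25 (SE 0.26) and the laminin chain Lamb2 at -0.33 (SE 0.05) in the authors' deposited table, against 0.32 (SE 0.05) for Col4a1. The laminin chain Lama3 was at 2.58 and 1.62 normalised counts in the authors' deposited tables and had no adjusted p at 24 h.

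In the list of latent TGF-beta, its binding proteins and receptors, 0 of 17 measured members were called at 12 h by the authors' Wald test, with a median log2 fold of -0.04, and 3 were higher and 1 lower at an unadjusted p under 0.05, beside 1.97% and 2.92% of all genes with a p. At 24 h 2 of 15 were higher and 3 lower, beside 5.9% and 6.52% of all tested genes, with a median of 0.08. Tgfb2, a ligand that has no RGD site in its latency peptide, was higher at 0.91 (SE 0.24), with a mean of 36.6 normalised counts, and the signal transducer Smad3 was higher at 0.22 (SE 0.05) in the authors' deposited table. Ltbp4 at -0.33 (SE 0.09), a latent TGF-beta binding protein, and the membrane protease Mmp14 at -0.14 (SE 0.04) were lower in the authors' deposited table. Tgfb1, whose latent form Itgb6 binds, was at 0.11 (SE 0.12) at 24 h and was not called. The third ligand, Tgfb3, was at 0.92 (SE 0.35) at 12 h and 0.64 (SE 0.43) at 24 h in the authors' deposited tables. It was not called at either time, and its means were low, at 30.5 and 13.3 normalised counts.

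Inside the cell the adaptors that bind integrin tails, such as talins and kindlins, held no called member at either time. Of 18 measured at each time, 0 passed the authors' Wald test, and the medians were 0.02 at 12 h and -0.02 at 24 h. At an unadjusted p under 0.05 there were 0 of them at 12 h and 3 at 24 h, beside 4.9% and 18% of all genes with a p. Of those 3, 2 were higher and 1 lower, where 8.91% and 9.08% of all genes with a p were. These shares also cover genes without an adjusted p, whereas every measured adaptor had one, so the comparison is rough. Adhesion plaque proteins and kinases held 0 called of 33 at 12 h by the authors' Wald test, though 4 had an unadjusted p under 0.05, beside 4.9% of all genes with a p. At 24 h 4 of 32 were higher and 3 lower, beside 5.9% and 6.52% of all tested genes, with a median of 0.05. The scaffold Bcar1 at 0.26 (SE 0.06) and the kinase Ptk2b at 0.40 (SE 0.10) were higher in the authors' deposited table, and caveolin (Cav1) at -0.34 (SE 0.08) and the PINCH family member Lims2 at -0.59 (SE 0.16) were lower. Among membrane partners and traffic proteins 0 of 15 passed the authors' Wald test at 12 h, and 0 had an unadjusted p under 0.05. At 24 h, beside the same shares of all genes, 1 of 14 was higher, the tetraspanin Cd81 at 0.23 (SE 0.04), and 2 were lower, the tetraspanin Cd63 at -0.22 (SE 0.05) and the small GTPase Arf6 at -0.17 (SE 0.05), again by the authors' deposited table.

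**Figure D4:**
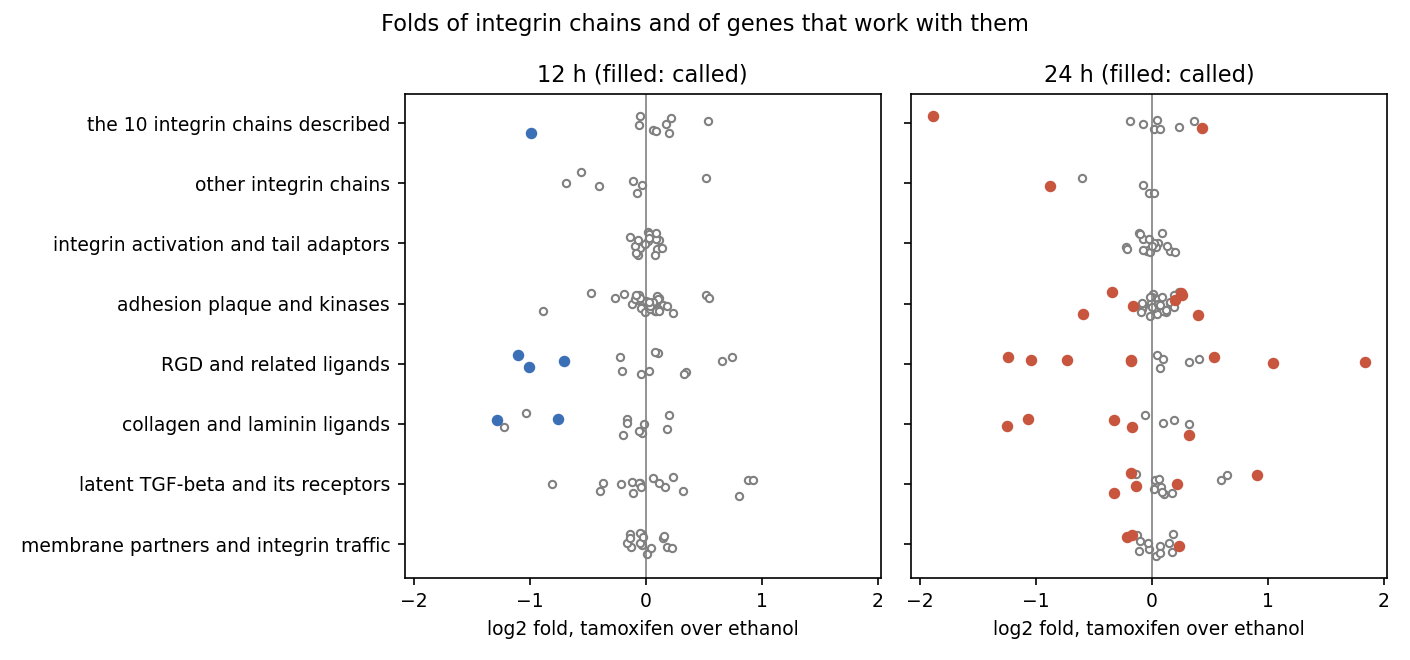
The log2 fold of tamoxifen over ethanol is plotted for each measured gene of 8 groups, the 10 integrin chains at the top and 7 lists of genes that work with them below, at 12 h and 24 h, with filled points for called genes and vertical scatter only to separate points. Itgb6 is the leftmost point of the top row at both times, and the adaptor row has no filled point.

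Chains outside the group were mostly scarce. Of the 16 other integrin chains, 11 had a mean under 10 normalised counts at each time, and 7 had an adjusted p at 12 h and 5 at 24 h. Of these, 1 at 12 h and 2 at 24 h had an unadjusted p under 0.05, beside 4.9% and 18% of all genes with a p. By the authors' Wald test 0 of 7 were called at 12 h and 1 of 5 at 24 h. Of all tested genes 0.943% and 12.4% were called, so these small counts do not set the chains apart. The called one was Itga7, a laminin receptor chain, at -0.88 (SE 0.24) in the authors' table as deposited, which gives it a mean of 39.0 normalised counts. The hemidesmosome chains Itga6 and Itgb4 were not called, with folds of -0.07 (SE 0.17) and -0.40 (SE 0.17) at 12 h and -0.02 (SE 0.09) and -0.08 (SE 0.25) at 24 h in the authors' deposited tables. Leukocyte chains were close to 0, with Itgam at 0.279 and 0.736 and Itgb2 at 4.08 and 1.26 normalised counts in the authors' deposited tables. The 10 markers of fibroblasts and stellate cells sum to implied levels of 31.4 normalised counts in ethanol and 30.0 in tamoxifen at 12 h and 10.5 and 12.9 at 24 h, with Col1a2, Col3a1 and Dcn at 0 at both times. The 8 endothelial markers sum to means of 2.49 normalised counts at 12 h and 2.33 at 24 h. The 8 immune markers sum to 80.9 normalised counts in ethanol and 81.8 in tamoxifen at 12 h and 81.9 and 74.4 at 24 h, nearly all of it Cd68. Of 6 platelet markers, Itga2b gave 24.8 of the summed 25.7 normalised counts at 12 h and 30.6 of 30.9 at 24 h. The 15 biliary markers sum to implied levels of 153249 normalised counts in ethanol and 145963 in tamoxifen at 12 h and 61277 and 65233 at 24 h, and are led by the keratin Krt18. The 10 hepatocyte markers, led by Apob, sum to implied levels of 17789 normalised counts in ethanol and 24252 in tamoxifen at 12 h and 29108 and 35530 at 24 h, and Apob was called higher at 24 h. At 12 h Krt7 was the called biliary marker, lower, and at 24 h Krt19 and Tspan8 were among the lower ones and Onecut2 and Cldn4 among the higher ones. The part of these shifts in the integrin folds was not tested.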

How the data were processed

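RNA libraries of the mouse biliary line (3 ethanol and 4 tamoxifen at 12 h, 4 and 4 at 24 h, grouped by title) were made with a TruSeq v2 kit per the labels' protocols. The submitters' processing notes name HISAT2, DESeq2 and mm10; how reads were counted, and with which model formula, is not given in the sources used here. At 12 h the ethanol replicate numbers skip 2, and no ethanol library of that number is among the samples of that time. Per the file headers, the deposited values are the mean normalised count, a signal averaged over libraries, the log2 fold with its SE, the Wald score, and a p-value before and after adjustment. Each time was normalised separately by the authors.

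Calls are the authors' own, at an adjusted p under 0.05. Within a time, tests were recomputed here only for the alternatives. The difference of folds between times was divided by the root of the summed squared SEs, with Benjamini-Hochberg adjustment over all genes with a p at both times. It was tried on simulated folds drawn with the deposited SEs, which checks the computation and cannot show whether those SEs are too wide or too narrow. Intervals are 1.96 SE wide on each side. Positions and exon lengths are from GENCODE M21 on GRCm38, the assembly mm10 names. Depth per library is known only as the mean sums given above, and without molecular identifiers reads do not count molecules. Named genes are the 10 chains, Klf5, up to 4 called genes with the smallest p per list and time, and the 5 nearest to Itgb6; others were named after their values were seen, and some genes of the lists are not reported here. The members and lists were chosen with earlier results of these data known. Older symbols were matched through RefSeq synonyms, for instance Ctgf. Work was done in Python 3.11.15 (scipy 1.17.1, pandas 2.3.3, numpy 2.4.6, matplotlib 3.10.9). Other adjustments, scalings, SEs and exon lengths were tried as alternatives.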

Additional observations from a re-analysis of the deposited data

How the results depend on the processing

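Itgb6 was called at both times, and Itga3 at 24 h, under each alternative that was run: adjustment over all genes with a p, over genes with a mean of at least 50, a threshold of 0.01, centred folds, and the running median SE of genes of similar mean. With that running median SE in place of the gene's own, 4 chains instead of 2 were called at 24 h. Itga2 (adjusted p = 0.00158) and Itga1 (adjusted p = 0.0102) then passed in the Wald test, and their own SEs are 3.87 and 2.94 times that value. The share of all genes called with that SE is not given here, so whether the rise is particular to the chains cannot be told. With adjustment over all genes with a p, centred folds or the running median SE, the Wald test adjusted p of Itgb6 ran from 1.07e-06 to 2.2e-06 at 12 h. At 24 h it ran from 2.56e-21 to 1.05e-06 over the same alternatives. The difference between times was called for 0 of the 10 chains under every alternative, and with the running median SE the adjusted p of Itgb6 was 0.165. With the longest transcript as the length, the Itgb6 share among the 5 beta chains was 3.46% in ethanol and 1.72% in tamoxifen at 12 h, and 0.758% and 0.205% at 24 h, and some neighbours in the order of levels changed places. Among the alternatives only the centring alters a fold. The medians it subtracts, -0.0060 at 12 h and -0.0072 at 24 h, are too small to change the sign of any chain. No paired analysis was possible because the tables hold no value per library, and for the same reason no library could be left out.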

Other observations

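In ethanol, the levels of Itgb6 and Itgav at 24 h over 12 h lay outside the middle 90% of genes, and those of the other chains apart from the barely read Itgb8 lay within it. The tables were normalised separately, so each log2 ratio of implied ethanol levels, 24 h over 12 h, is given relative to the median of -0.29 over 9465 genes whose mean, averaged over both times, reached 100 normalised counts. On that scale Itgb6 stood at -1.86, with 1.49% of these genes lower still, and Itgav and Itga2 at 1.47 and 1.11, while the middle 90% of genes ran from -1.23 to 1.24. Itgb1 stood at 0.48, Itgb5 at -0.08, Itga3 at -0.40, Itga5 at -0.51, Itga1 at -0.28 and Itgb3 at -0.67. The ethanol level of Itgb6 per kb was 61.8 normalised counts at 12 h and 13.9 at 24 h before this centring. Time and set of libraries cannot be told apart here, and no test was made.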
